A study of Mus musculus with 3 samples.

Results

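The most abundant stretches of nuclear sequence in RNA from ovulated mouse oocytes were selected on the measured coverage itself: they are the 1 kb windows that averaged 200 CPM or more over 3 litters. CPM is the summed depth of a window divided by the summed depth of its library and scaled to 1000000, so a window of 200 CPM held 200 of every 1000000 alignments. The mitochondrial chromosome, the Y chromosome, unplaced contigs and the stretch of chromosome 17 that carries 45S ribosomal RNA sequence were left out by the rule. Of 2638997 eligible windows, 437 were members (0.0166%), and windows that touch were joined into 361 loci. All windows over all sequences numbered 2725738. Because CPM chose the members, their levels are given as a description.

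Each of the 3 libraries came from the oocytes of 1 litter, and the series as used here holds this 1 group. The females were superovulated and the oocytes collected by E0.5. All carried LSD1 FL/FL alleles (loxP sites flanking Kdm1a, a histone demethylase gene) and were ZP3::Cre negative, so the oocyte-driven recombinase was absent, on a mixed strain background. Total RNA was amplified by SPIA (single primer isothermal amplification), in which cDNA is copied linearly at constant temperature, and each litter gave 1 library. The number of oocytes behind a library is not given in the sources used here, and no sample lacks the floxed alleles.

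A fully grown oocyte stores RNA made during growth and is almost silent in transcription by the time it is ovulated, so its RNA is a maternal store. Mammalian genomes carry many copies of highly expressed sequences: tandem gene families, mobile elements, copies of RNAs pasted back by reverse transcription, and stretches of mitochondrial DNA. A short read that matches several copies can be reported at each of them, and its depth then appears at every place. The gene annotation at hand is of another genome build than mm9, the build of the files. Nuclear loci are therefore given by mm9 position, no nuclear gene is named and no sequence is printed, and the oocyte and cumulus cell markers were not analysed here.

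The libraries held 35183199, 31787887 and 32028802 alignments in litters 1, 2 and 3. Litter 3 stood apart from litters 1 and 2 in much of what follows. Each litter was sequenced in its own lane, so litter and lane cannot be told apart. Nothing in the labels says how many females gave each litter's oocytes, and p-values below set differences between 3 libraries against counting error.

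The members held 44.95%, 43.8% and 38.8% of all alignments in litters 1, 2 and 3 (42.5% ± 3.26, SD, n = 3). Of the distinct positions at which alignments begin, they held 3.36%, 3.61% and 3.75% of the distinct start positions (3.57% ± 0.199, SD, n = 3). A window has only 1000 such positions, so this share cannot follow the depth of a window. Among them 62 reached 1000 CPM, 16 reached 5000 CPM and 9 reached 10000 CPM, while the median was 363 CPM. Most loci were 1 window long (299 of 361), 52 were 2 windows long, 7 were 3, 2 were 4 and 1 was 5.

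**Figure D1:**
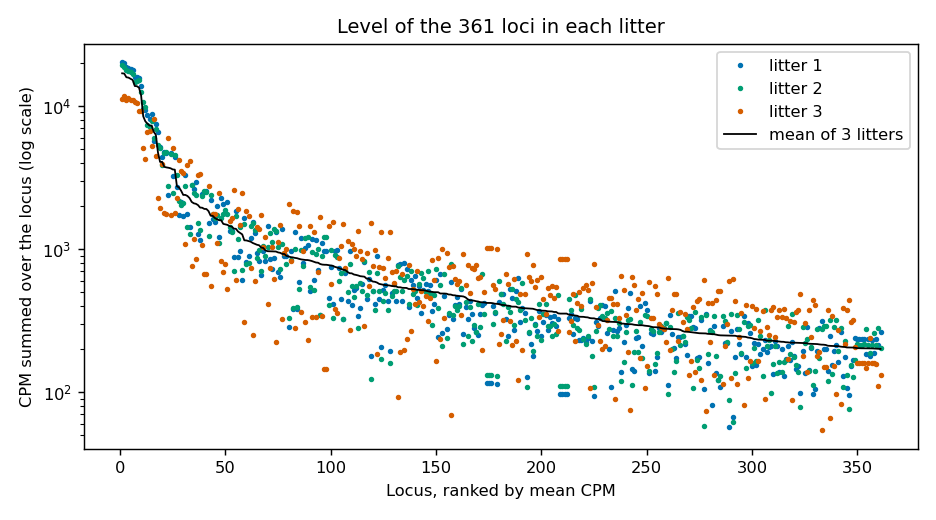
CPM summed over each of the 361 loci (log scale), ordered by mean CPM; coloured points are the 3 litters and the line is their mean. The 10 highest loci have means above 10000 CPM, and in them litter 3 lies below both other litters.

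The rule drew its line through a continuous range of levels. Just inside it, the window at chr6:75246001-75247000 had 186, 294 and 121 CPM in litters 1, 2 and 3, with a mean of 200.3. The next windows up were chr16:22059001-22060000 at 200.5 and chr4:132808001-132809000 at 200.8. Just outside it, chrX:32717001-32718000 had 231, 211 and 156 CPM, with a mean of 199.6. The next windows down were chr15:60299001-60300000 and chr13:65296001-65297000, both at 199.5 after rounding. In these 6 windows the SD over litters, from 38.8 to 87.7 CPM, far exceeded the distance to the line.

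The 10 highest loci lay on 9 chromosomes and together held 17.4%, 16.4% and 10.7% of all alignments in litters 1, 2 and 3. These sums count an alignment at every locus where it was reported. The highest, chr13:44964001-44966000, had 20080, 19251 and 11198 CPM. Next came chr16:57391001-57392000 with 19785, 18789 and 11753 CPM. The locus chr6:145881001-145882000 had 18715, 17734 and 10995 CPM. In each of these 3 loci litters 1 and 2 were close and litter 3 was lowest.

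Litter 3 was also lowest in the other 7. Alignments are shared among these 10 loci, as described below, so they do not count as separate measurements of a litter. The locus chr2:20821001-20822000 had 18324, 17455 and 11376 CPM, and chr6:44742001-44744000 had 18062, 17227 and 11004 CPM. The locus chr15:86025001-86026000 had 17787, 16649 and 10964 CPM. Lower in level were chr8:15519001-15521000, with 15861, 14729 and 10597 CPM, and chr11:33654001-33656000, with 15921, 14774 and 10379 CPM. The last of the 10 were chr12:100883001-100884000, with 15725, 15242 and 9176 CPM, and chr3:37380001-37381000, with 13720, 12510 and 9185 CPM. Divided by the average of the other litters, litter 3 gave a ratio of 0.569 to 0.700 over the 10 loci. Ratios of litter 3 below are this quantity.

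The peaks of the loci ranked 1 to 6 had the same outline. In the profiles of depth around the summit, a steep edge lies on one side and a notch beside the summit, with a second crest or shoulder beyond it. The loci ranked 1 to 3 show it in one direction, and those ranked 4 to 6 show it mirrored. In litter 3 that shoulder lies well below the summit, whereas in litter 2 it rises above the marked summit at ranks 1 and 5. Widths at 50% of the maximum were 135, 132 and 87 bases in litters 1, 2 and 3 at the highest locus, and 124, 135 and 85 at the second.

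**Figure D2:**
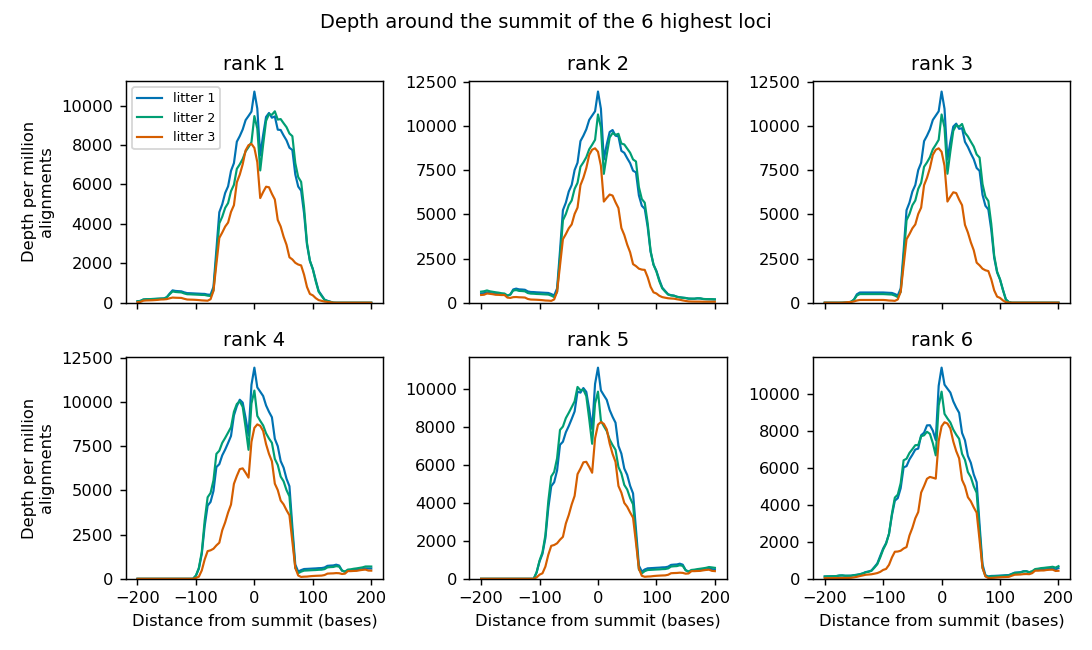
Depth scaled to 1000000 alignments per library against distance from the summit in bases, for the 6 loci of highest mean CPM, 1 panel each and 1 line per litter. The loci ranked 4 to 6 mirror those ranked 1 to 3, and the shoulder beside the summit is lowest in litter 3 in all 6 panels.

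Peaks were narrow throughout the members. The width at 50% of the maximum, measured on the mean profile of the litters, had a median of 86 bases, a lower quartile of 75 and an upper quartile of 108, with a range from 72 to 327. An alignment is 72 bases long, and 47 of the 361 loci (13.0%) were exactly that wide. A width of at most 100 bases was found at 246 loci (68.1%) and of at most 144 bases, the length of 2 alignments end to end, at 328 (90.9%). At 25% of the maximum the median was 134 bases and at 10% it was 186.

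Narrow peaks were not particular to the members. Among 7659 loci of 10 to 200 CPM, measured in the same way, the median width at 50% of the maximum was 81 bases, with 15.9% at 72 bases and 75.5% at 100 or fewer. The members were slightly wider on each of these counts.

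**Figure D3:**
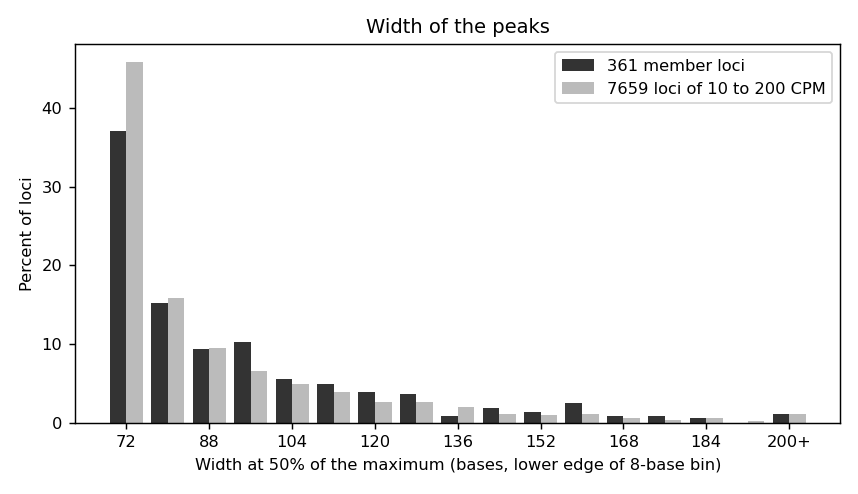
Percent of loci (bars) by width at 50% of the maximum in 8-base bins, for the 361 member loci and the 7659 loci of 10 to 200 CPM; the last bin holds all wider loci. Both sets are highest in the narrowest bin, which starts at 72 bases.

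The widest locus, chr5:90049001-90051000, measured 327 bases at 50% of its maximum. It had 768, 760 and 92.4 CPM, so that litter 3 was far below the others. The next widest were chrX:159216001-159217000 at 238 bases, chr5:34808001-34809000 at 236, chr9:7932001-7933000 at 211 and chr8:67537001-67539000 at 187. Each of those 4 was highest in litter 3.

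Peaks were wider in litter 3. The median width was 79 bases in litter 1, 79 in litter 2 and 97 in litter 3. Litter 3 was wider than both others at 209 loci (57.9%) and narrower than both at 76 (21.1%). The loci of 10 to 200 CPM had medians of 76, 76 and 93 bases, and litter 3 was the widest at 57.8% and the narrowest at 13.3% of them. All of the 10 highest loci went the other way, with 83 to 88 bases in litter 3 and 92 to 135 in litters 1 and 2. Those 10 loci share alignments, so they do not count as separate cases.

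Where the alignments began was partly shared between litters. The commonest start was at the same base in litters 1 and 2 at 269 loci (74.5%), but in litters 1 and 3 at 115 (31.9%) and in litters 2 and 3 at 109 (30.2%). The same pairs gave 38.9%, 18.3% and 17.6% among loci of 10 to 200 CPM. It was the same base in all 3 litters at 95 loci (26.3%), against a background of 11.6% over all 8020 loci of at least 10 CPM, members included. Deeper loci hold more alignments from which to find the commonest start, and the part of depth in this difference was not tested. That commonest start held a median of 4.10%, 4.16% and 4.13% of a locus's alignments in litters 1, 2 and 3. As medians, 30, 29 and 31 start positions held 50% of them.

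At most loci the summits themselves moved little. The 3 litters placed them within 72 bases of each other at 293 of the 361 loci and on the same base at 60. The distance between summits of the litters had a median of 6 bases and an upper quartile of 40, but reached 2984. Among loci of 10 to 200 CPM its median was 15 bases and its upper quartile 100.5. At chr9:118584001-118585000 the commonest start was the same base in all litters although the level was 1543, 1509 and 249 CPM.

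Many loci had exactly the same maximum depth as another. Equality was required in all 3 libraries at once, as raw depth with no tolerance. It was met by 45 loci in 16 groups, of which 11 groups lay on 1 chromosome and 5 were spread over several. Counting a match with any locus of at least 10 CPM, 47 of the 361 loci (13.0%) shared their maximum, and the background over all 8020 loci was 4.99%. At 34 loci the depth was also identical to that of another at every base within 50 bases of the summit, in the same or the mirrored order. They formed 14 sets, since the loci of 1 group, on the X chromosome, fell into 2 sets with different profiles.

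Ordered by their depth in litter 1, the deepest shared maximum was 420253, 338514 and 280076 in litters 1, 2 and 3. It occurred at chr16:57391001-57392000, chr2:20821001-20822000, chr6:145881001-145882000 and chr8:15519001-15521000, which are 4 of the 10 highest loci. Runs of start positions were also compared, a run being 3 neighbouring starts with at least 50 alignments, and shared where the counts in all 3 libraries and the spacing were identical. The locus on chromosome 6 shared 118 runs with that on chromosome 16, in the same direction. The loci on chromosomes 2 and 8 shared 211 and 199 runs with it, all mirrored. An alignment reported at several of these places is counted at each.

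The second deepest group was 141198, 122872 and 36501, at chr15:93064001-93065000, chr2:6997001-6998000 and chr9:78023001-78024000. The loci on chromosomes 2 and 9 were both mirrored against that on chromosome 15. A pair on chromosome 12, chr12:88947001-88950000 and chr12:89197001-89199000, shared 18654, 16716 and 14567, with 887 runs in the same direction. Another pair, chr12:70260001-70261000 and chr12:70462001-70463000, shared 18194, 21674 and 2138, with 197 runs, all mirrored. The fifth in this order was chr4:143400001-143401000 with chr4:143786001-143787000, at 15978, 12345 and 10581.

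The group with the most members lay on the X chromosome. Its 6 loci, between chrX:24610001-24611000 and chrX:29842001-29843000, all had maxima of 6416, 5384 and 4215, and mean levels of 201 to 203 CPM, just above the line that chose the members. Relative to the first of them, 4 were mirrored and chrX:29576001-29577000 lay in the same direction. Chromosome 7 held 2 groups of 4, interleaved between chr7:20768001-20769000 and chr7:23821001-23822000. Maxima were 3955, 4069 and 31272 in the first and 3392, 3457 and 27073 in the second, so that litter 3 was much the deepest.

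Shared runs tied together many more loci than equal maxima did. Of the 361 loci, 226 held at least 1 run that recurred elsewhere and 135 held none. At 107 loci over 50% of the alignments lay in recurring runs. Loci were placed in a family where at least 5 runs were shared, directly or through other members. This gave 49 families with 188 loci, 23 of them pairs, and the families held 77.3% ± 4.23 (SD, n = 3) of the alignments in members. The definition of a run was chosen earlier on these data. No share of loci with recurring runs is given for loci of lower level. A run needs at least 50 alignments, so the depth of members may add to these counts, and this was not tested. The counts are therefore not read as particular to members.

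The largest by level, called family 1 here, held 17 loci on 13 chromosomes, among them all of the 10 highest. Its loci summed to 21.2%, 20.1% and 13.0% of all alignments in litters 1, 2 and 3, with a shared alignment counted at every place. Not all pairs were linked directly. The locus chr12:100883001-100884000 had only 2.36% of its alignments in recurring runs and was linked to 4 others, whereas chr6:145881001-145882000 had 99.3% and was linked to 13. All 17 loci were lowest in litter 3, with ratios from 0.443 to 0.814.

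Family 2 also held 17 loci, on 12 chromosomes, led by chr3:5860001-5861000 at 2067 CPM. It summed to 20157, 16385 and 5377 CPM, and litter 3 was lowest at all 17 loci (median ratio 0.308). Family 6, with 7 loci led by chr9:56071001-56072000, summed to 17370, 17360 and 6963 CPM. Family 8, with 5 loci including the chromosome 15, 2 and 9 group above, summed to 17607, 17375 and 7070 CPM. In these 3 families litter 3 was far below both other litters.

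Other families went the opposite way. Family 3, 10 loci within 3.17 megabases of chromosome 7, summed to 1227, 1398 and 10281 CPM, and its ratios ran from 6.72 to 8.26. Family 5, 8 loci within 2.03 megabases of chromosome 5, summed to 2024, 1950 and 10997 CPM, with ratios from 4.63 to 9.53. Family 4, 8 loci on 7 chromosomes led by chrX:64031001-64032000, summed to 6033, 7010 and 14989 CPM. Litter 3 was highest at every locus of the 3 families. In family 3, every locus except chr7:20648001-20649000 was below 200 CPM in litters 1 and 2 and reached the minimum only through litter 3. The same held for some loci of families 4 and 5, such as chr5:94170001-94171000 with 67.6, 61.5 and 615 CPM. For all of these the order was fixed by the rule, so nothing is read from it. Loci of a family share alignments, so they do not count as separate measurements of a litter.

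**Figure D4:**
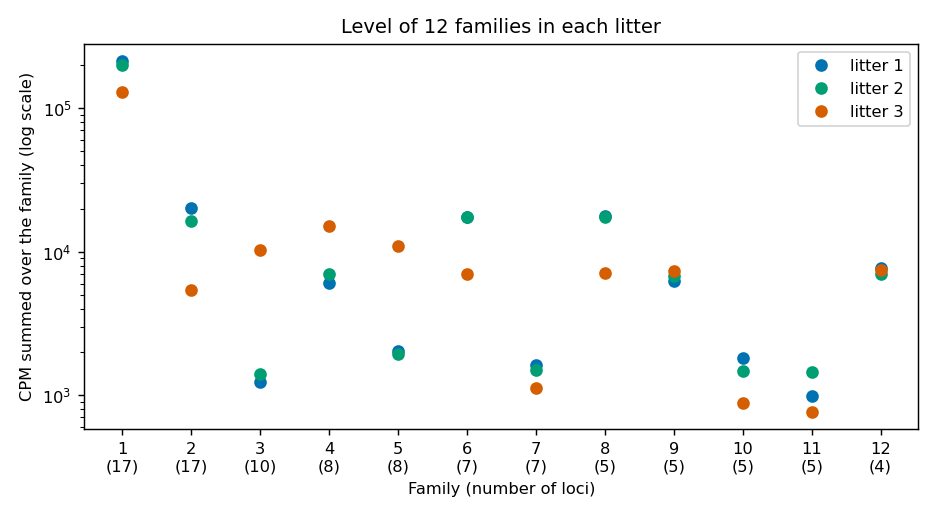
CPM summed over each of 12 families (log scale) in the 3 litters, with the number of loci in parentheses; alignments reported at several loci count at each. Litter 3 is the lowest point in families 1, 2, 6, 7, 8, 10 and 11 and the highest in families 3, 4, 5 and 9. In family 12 it lies between the other litters. At families 6 and 8 the points of litters 1 and 2 overlap.

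Some members recurred in sequence that the rule left out. Those with at least 5 shared runs numbered 6 for the mitochondrial chromosome, 3 for the 45S stretch, 20 for contigs and 0 for the Y chromosome. The longest member, chr1:24618001-24623000, had 3242, 2466 and 5067 CPM over its 5 windows, and 2605 of its 2626 runs recurred on the mitochondrial chromosome. Those runs began between mitochondrial bases 6394 and 10969. By midpoint most fell in genes of the respiratory chain and ATP synthase: 352 in mt-Co1, 537 in mt-Co2 and 267 in mt-Co3 (subunits of cytochrome c oxidase), 457 in mt-Atp6 and 127 in mt-Atp8 (subunits of ATP synthase), and 574 in mt-Nd4, 234 in mt-Nd4l and 75 in mt-Nd3 (subunits of complex I). In the transfer RNA genes mt-Ts1 and mt-Tr there were 19 and 8. These gene positions come from a GRCm38 annotation, on the assumption that this chromosome, of 16299 bases here, is the same in both builds.

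A second locus of this kind was chr2:22443001-22446000, with 1760, 1426 and 3844 CPM and 336 of 1542 runs shared with the mitochondrial chromosome. The others were chr12:98299001-98300000 with 204 shared runs, chr10:95540001-95541000 with 40, all in mt-Rnr2 (the large mitochondrial ribosomal RNA), chr4:79648001-79649000 with 22 and chr13:85266001-85267000 with 9. The ratio of litter 3 was above 1 at all 6 loci, from 1.52 to 2.77.

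The 3 loci that shared runs with the 45S stretch were lower in litter 3. They were chr6:3150001-3152000, with 9563, 10665 and 5107 CPM and 253 of 803 runs shared, and chr16:18533001-18534000 with 62 of 71. The third was chr1:56838001-56840000, with 6506, 5355 and 2286 CPM and 8 of 221 runs shared. Ratios of the 3 loci were 0.505, 0.216 and 0.386, but at the third only 1.55% of alignments lay in recurring runs. The first of them was the 11th highest locus, so leaving out the stretch on chromosome 17 did not remove all alignments that also match it.

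Members were spread over every chromosome the rule allowed. Chromosome 6 held the most loci (30) and chromosome 15 the fewest (8). The median distance to the nearest other locus was 2016000 bases. A neighbour within 10 kb was found for 25 loci (6.93%), within 100 kb for 48 (13.3%) and within 1 megabase for 137 (38.0%). Joining at 100 kb gave 22 clusters, of which 4 had 3 loci and the rest were pairs.

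Among the clusters of 3 loci, the densest was chr4:143784001-143799000, with 3 loci in 15 kb that summed to 1745, 1697 and 2158 CPM. Next were chr4:143383001-143403000, with 3 loci in 20 kb at 1841, 1795 and 2043 CPM, and chr8:67505001-67539000, with 3 loci in 34 kb at 1719, 1940 and 3055 CPM. The clusters on chromosome 4 each held a locus of families 9, 38 and 41, so they share alignments and are not separate. Family 38 is the pair with maxima of 15978, 12345 and 10581. All runs shared between the loci of family 38, and of family 41, were mirrored. The loci on chromosome 8 belonged to no family and were highest in litter 3 at all 3 places.

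At 1 megabase, 3 of the 5 clusters with at least 5 loci consisted mostly of 1 family. The cluster chr7:20609001-23822000 held 11 loci, 10 of them in family 3, and summed to 1685, 1807 and 11728 CPM. The cluster chr5:94064001-96095000 held 8 loci, all in family 5. The cluster chr4:145319001-146461000 held 5 loci, all in family 11, and summed to 993, 1460 and 766 CPM, with litter 3 lowest at all 5. The other 2, chr4:143383001-143799000 with 6 loci and chr9:78023001-78329000 with 5, had no more than 2 loci of any family. All 6 loci of the former nevertheless belonged to families 9, 38 and 41.

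The longest runs of member windows were less uniform. After the 5-window locus on chromosome 1 came chr13:51244001-51248000, with 2129, 2024 and 3492 CPM, and chr1:134882001-134886000, with 879, 702 and 2578 CPM. At chr12:88947001-88950000 the litters had 1619, 1741 and 1748 CPM and barely differed. Of the 62 loci of at least 2 windows, 36 had the same highest litter in all their windows, and the ratio of litter 3 differed between windows of a locus by a median of 1.82-fold and up to 9.16-fold.

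The spread between litters was tested for each window with a chi-square test of equal CPM over the libraries, adjusted by Benjamini-Hochberg over all 10766 windows of at least 10 CPM. An adjusted p below 0.05 was reached by 436 of the 437 members, which at this depth says only that counting error is small. A limit on size was therefore added. Past 2-fold between the highest and lowest litter were 251 members (57.4%), against 54.2% of all windows tested. Past 4-fold were 77 members (17.6%), against 17.4%. These shares lay near the background, so the members were about as variable as other windows.

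Among members, the difference was between litter 3 and the rest. Between litters 1 and 2 only 4 members differed by over 2-fold, compared with 224 between litters 1 and 3 and 225 between litters 2 and 3. The median fold was 1.15, 2.02 and 2.09 for these pairs. The pairs were not compared over all windows tested, so these values are not read as particular to members. Members past 2-fold were highest in litter 3 in 151 cases (34.6%, background 28.2%) and lowest in litter 3 in 100 (22.9%, background 23.2%). The rule used a mean that includes litter 3, and 264 of the 437 members reached 200 CPM in every litter, so nothing is read from that excess or from the median ratio that follows. The log2 of the litter 3 ratio had a median of 0.32 over members and 0.06 over all windows of at least 10 CPM. The median CV over litters was 43.1% in members and 38.1% in windows of 10 to 200 CPM.

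The direction, given here as a description, varied with level. All 10 loci of at least 10000 CPM were lowest in litter 3, as were 6 of the 7 loci from 5000 to 10000 CPM. From 1000 to 5000 CPM, 25 of 51 were lowest and 24 highest in litter 3. Litter 3 was highest at 43 of 80 loci from 500 to 1000 CPM and at 64 of 91 (70.3%) from 300 to 500 CPM. From 200 to 300 CPM it was highest at 68 of 122 (55.7%), so there was no steady trend below 1000 CPM. The mean that chose and ordered the loci includes litter 3, so nothing is read from these shares. Among windows of 10 to 200 CPM, litter 3 was highest in 46.0% and lowest in 40.8%. Of the 17 loci above 5000 CPM, 16 belong to families, nearly all to family 1 and the rest to family 15. All of the 10 highest are in family 1. Loci of a family share alignments, so they do not count as separate measurements of this order. CPM sum to the same total in each library, and the part of that in this order was not tested.

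**Figure D5:**
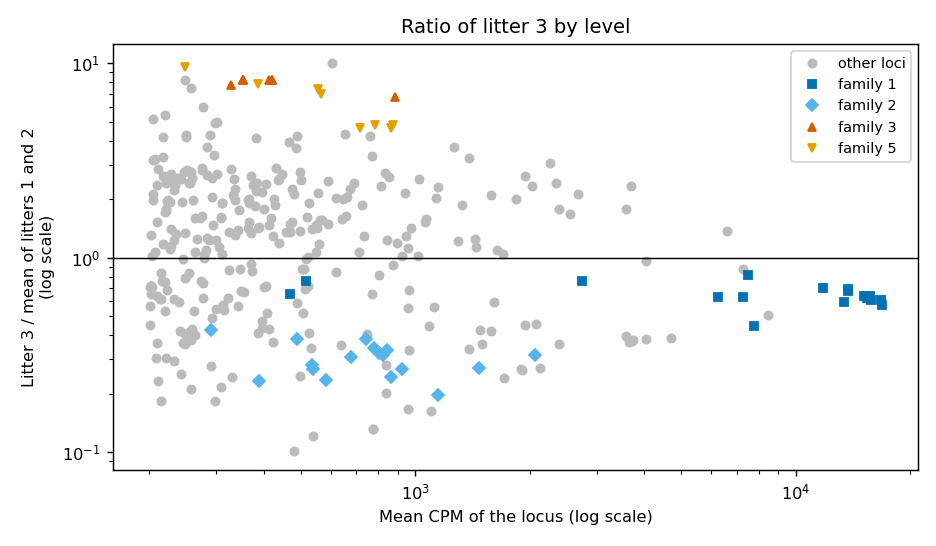
Litter 3 ratio (litter 3 over the average of the other litters) against mean CPM for the 361 loci, both on log scales, with 4 families marked; the line is a ratio of 1. Families 1 and 2 lie below the line at every locus and families 3 and 5 above it.

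The locus with the highest ratio of litter 3 was chr6:122579001-122581000, with 179, 123 and 1510 CPM. Next was chr5:94170001-94171000 of family 5, with 67.6, 61.5 and 615 CPM. The next 3, chr7:21646001-21647000, chr7:22963001-22964000 and chr7:20768001-20769000, all belong to family 3, and each had 97.2, 110 and 854 CPM. These 5 loci thus came from only 3 families, since the locus on chromosome 6 belongs to family 35. All their windows were below 200 CPM in litters 1 and 2 and reached the minimum only through litter 3. Their order was thus fixed by the rule, and nothing is read from their ratios.

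At the other end was chr6:69466001-69467000, with 590, 781 and 69.7 CPM. The widest locus, chr5:90049001-90051000, came next. The mirrored pair chr12:70462001-70463000 and chr12:70260001-70261000 followed, the former with 964, 1217 and 144 CPM, and shared family 19 with the locus on chromosome 6. The fifth was chr9:118584001-118585000, described above, which belonged to no family and held no recurring run.

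Litters 1 and 2 were farthest apart at chr2:113672001-113673000, with 109, 367 and 453 CPM. Also far apart were chr15:100523001-100524000, with 81.3, 263 and 418 CPM, and chr12:25345001-25346000, with 285, 107 and 390 CPM. The last of the 5 were chr11:69212001-69213000, with 211, 98.2 and 377 CPM, and chr12:111932001-111933000, with 357, 679 and 509 CPM. Of these 5 loci, 4 held no recurring run.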

How the data were processed

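The authors deposited 1 coverage signal per library, the raw number of alignments over each base, unscaled. Reads were aligned with Bowtie to mm9, per the submitters' processing notes; its version and the placements allowed per read were not given in the sources used here. Stand-alone blocks of depth 1 had lengths divisible by 72 bases in 100% of cases, so alignments were taken as 72 gapless bases and their starts recovered from steps in depth, with 0 negative counts. The 45S stretch left out was chr17:39979001-39986000. Samples were grouped by their labels (3 litters, 1 group). Loci were named by rank of level, width, length, clustering, shared maximum and litter ratio, and as the windows nearest to the minimum. The members, lists and the definition of recurring runs were chosen with earlier results of these data known. Chi-square tests of counts used scipy 1.17.1, with counting error as the only error. Start recovery, widths, shared maxima, runs and the litter test were tested on simulated data. Alternatives changed the minimum, grid, counting, scaling and litters. Nuclear genes and sequences were not analysed here.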

Additional observations from a re-analysis of the deposited data

Results flagged for a closer look

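Contigs of no assigned position were outside the rule, yet 20 member loci had at least 5 recurring runs on them. Over all such contigs, the alignments in those shared runs numbered 65389, 57187 and 158374 in litters 1, 2 and 3, of 228620, 210596 and 369627 alignments on the contigs. The loci involved included all 8 of family 5 on chromosome 5 and all 5 of family 11 on chromosome 4.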

How the results depend on the processing

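Of 61 alternatives for 9 results, 39 kept the result. Counts were kept within 1.5-fold and other values within the spread between litters. A minimum of 100 CPM gave 1014 windows, 846 loci, 50.4% of alignments and 77 loci sharing a maximum. A minimum of 400 CPM gave 193, 170, 35.8% and 22. Requiring 200 CPM in each litter left 264 windows. Counting each start position once left 0 windows, 0 loci and 0% of alignments, because a window has 1000 positions and the minimum needs 923 to 1012. For members as chosen by depth, it gave 0 windows past 2-fold and a median CV of 6.71%, and 3.57% of start positions, the last chosen after seeing the data. The limit of 1000 positions holds down these values too, so they do not show that the litters differ less. The median width was 134 bases at 25% and 186 at 10% of the maximum. A limit of 4-fold left 77 windows. Neighbours numbered 25 within 10 kb and 137 within 1 megabase.

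Leaving out each litter in turn gave 4 to 225 windows past 2-fold and a median CV of 10.1% to 49.9%; the low ends are without litter 3. It gave 395 to 460 windows, 331 to 380 loci, 41.9% to 44.1% of alignments, widths of 79 to 90 bases and 45 to 48 loci sharing a maximum. No paired analysis was possible because all samples belong to 1 group. Links of 1 or 20 shared runs, also chosen after seeing the data, put 197 and 158 loci in families. Counting each shared maximum once kept the width (86 bases), windows past 2-fold (234), median CV (43.1%) and neighbours (47).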
